A study of Homo sapiens with 9 samples.

Results

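The cancer-testis antigen genes were followed in 2 JAG1 knockout clones of MDA-MB-231-D3H2LN cells and in the wild-type cells they were made from. Members were the gene symbols whose name begins with MAGE and a letter, XAGE, PAGE, GAGE, SSX, CTAG, CSAG, CT45, CT47, SPANX or BAGE, together with CT83, DDX53 and NAA11, wherever at least 1 library held a count. By name 139 of the 56505 symbols in the tables matched, and 57 of them had a count in any library. The 57 were classed by name. Of them, 39 were taken as cancer-testis genes and 8 were type II MAGE genes, which are broadly expressed. The other 10 (9 CTAGE genes and SSX2IP) were kept apart from both. The results below are given for the 39 cancer-testis genes, 37 of which lie on chromosome X, with the type II MAGE genes set beside them.

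Cancer-testis antigens are genes whose expression in the healthy adult is largely limited to germ cells of the testis and that many tumours express. Their promoters are known to be methylated at CpG dinucleotides in somatic cells, and loss of that methylation is a known route to their expression in tumour lines. Many are studied as targets of cancer vaccines or engineered T cells, and the MAGE proteins are known as partners of RING ubiquitin ligases. Neither methylation nor protein was measured here.

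MDA-MB-231-D3H2LN is a lymph-node metastatic, luciferase-bearing derivative of MDA-MB-231, an established triple-negative breast cancer line. Clone 1 and clone 2 were each grown from a single cell after transfection of Cas9 protein with guide RNAs against an exon of JAG1, which encodes a Notch ligand, and the labels call both homozygous knockouts. The wild-type cells expressed JAG1 and were not a clone, and no unedited clone was analysed here. RNA of 3 libraries per group was sequenced, so the spread between libraries is that within 1 line or 1 clone, and p-values measure only that spread; effects of JAG1 loss and of growing from a single cell cannot be told apart.

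JAG1 RNA, the target of the guides, stood at 80.8 to 110 CPM (read counts scaled by library size and TMM factors) in clone 1, 56.5 to 76.1 CPM in clone 2 and 161 to 246 CPM in wild-type cells. The log2 fold change was −1.05 (SE 0.18, edgeR adjusted p = 0.00312) in clone 1 and −1.55 (SE 0.18, edgeR adjusted p = 0.00013) in clone 2. Library totals ran from 16890890 to 22456164 counts. The 6 markers of the line (VIM, CD44, EGFR, AXL, CAV1 and NT5E) were on in all 9 libraries. Of 6 testis germ cell markers, DDX4, DAZL, TNP1, PRM1 and PRM2 had 0 counts in all 9 libraries, and the summed level of the list was 0.38 to 0.501 CPM in clone 1, 0.0474 to 0.742 CPM in clone 2 and 0.151 to 0.291 CPM in wild-type cells.

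Markers of other cell types were counted beside these. Of 5 fibroblast markers (COL1A1, COL1A2, DCN, LUM and PDGFRA), 2 were on in every library of clone 1, 1 in every library of clone 2 and 2 in every wild-type library, and DCN was at 0 counts in clone 2. Their summed level was 23.9 to 26.9 CPM in clone 1, 13.4 to 18.3 CPM in clone 2 and 24.5 to 56.2 CPM in wild-type cells. LUM, which encodes a matrix proteoglycan, had 578 reads in clone 1, 27 reads in clone 2 and 877 reads in wild-type cells. Of 6 luminal or epithelial markers (ESR1, PGR, ERBB2, GATA3, CDH1 and EPCAM), 3 were on in all libraries of each group, PGR was at 0 counts in clone 2, and the sums were 107 to 119, 122 to 128 and 119 to 129 CPM in clone 1, clone 2 and wild-type cells. The fibroblast sum was lowest in clone 2, but its single markers were not all lowest there. The part of these markers in the results was not tested.

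A gene was taken as on in a library at 0.5 CPM or more, on in a group when on in 3 of 3 libraries, off when on in none, and mixed otherwise. Of the 39 cancer-testis genes, 12 were on, 3 mixed and 24 off in clone 1. In clone 2, 7 were on, 2 mixed and 30 off, and in wild-type cells 17 were on, 4 mixed and 18 off. The clones differed in which genes were on: 8 genes (MAGEB2, XAGE2, CT83, NAA11, DDX53, MAGEA3, MAGEA12 and CSAG1) were on in clone 1 and off in clone 2, while 2 genes (SSX1 and SPANXC) were off in clone 1 and on in clone 2. MAGEA6 and MAGEA11 were off in both clones, and XAGE1A, XAGE1B, SPANXB1 and SPANXD were on in all 3 groups. None of the 18 genes that were off in wild-type cells was on in 3 of 3 libraries of a clone. Of these, 17 did not reach 0.5 CPM in any library. The nearest was PAGE2B, a prostate-associated antigen gene, on in 1 library of clone 1 at 0.557 CPM. How many of all genes changed state by this rule was not counted, so these numbers are descriptions only.

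**Figure D1:**
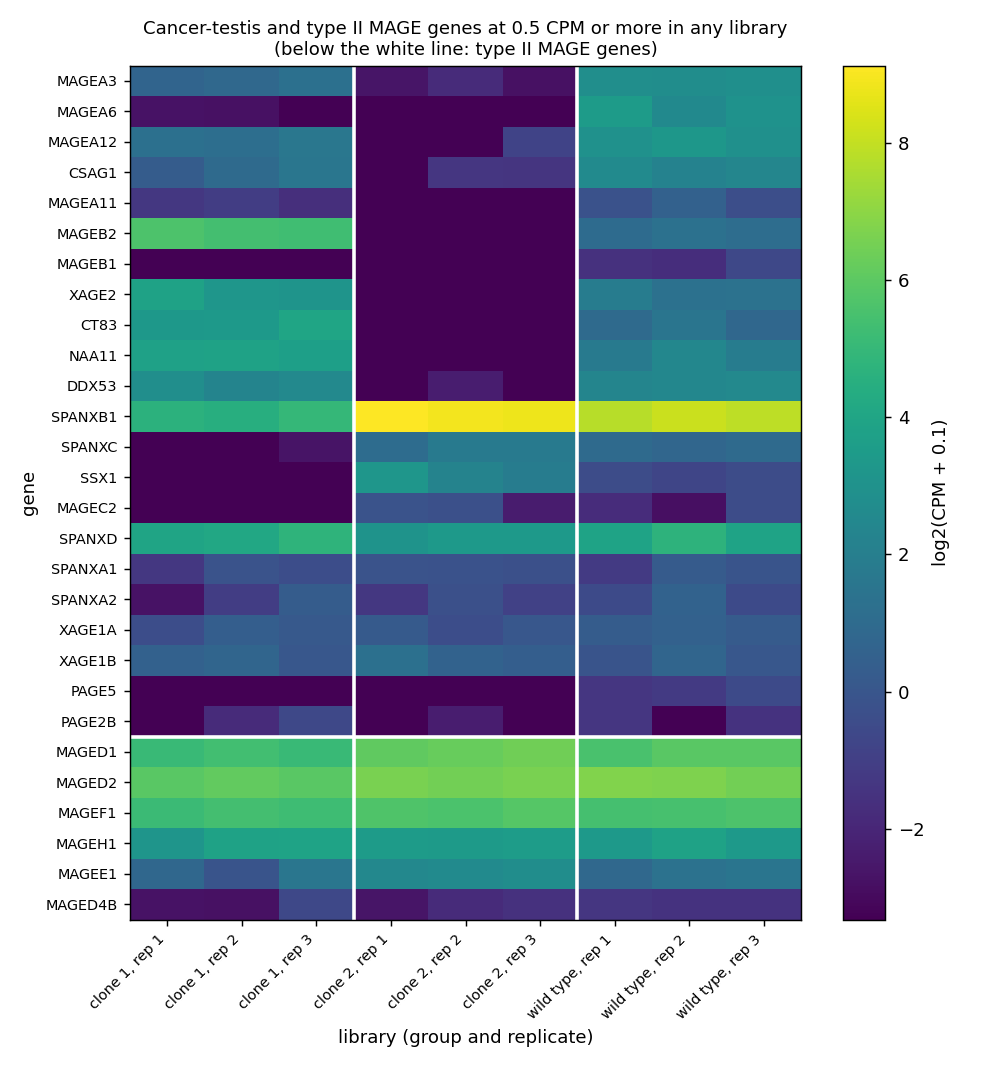
Level of each cancer-testis and type II MAGE gene that reached 0.5 CPM in any library, as log2(CPM + 0.1), with genes down the page and the 9 libraries across in the order clone 1, clone 2, wild type. The dark block in clone 2 covers genes at 0 counts, among them MAGEB2, XAGE2, CT83, NAA11 and MAGEA6, SSX1 is dark in clone 1, and under the white line 5 type II MAGE genes are on in all 9 libraries and MAGED4B in 1 of clone 1.

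Complete silence was counted among the genes of the list that passed a count threshold in wild-type cells. Of the 39 cancer-testis genes, 17 had 10 or more counts in every wild-type library. In clone 1, 1 of these 17 (SSX1) had 0 counts in 3 of 3 libraries, against 0.16% of the 14980 genes that met the same condition. In clone 2, 6 of the 17 (MAGEB2, XAGE2, CT83, NAA11, MAGEA6 and MAGEA11) had 0 counts in 3 of 3 libraries, against 0.227% of those 14980 genes. These shares are descriptions of this list, which was chosen with earlier results of the data known. In bulk RNA, fewer cells that express a gene and less RNA per cell cannot be told apart.

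Differential expression was tested with edgeR over 16921 genes, and a gene was called at an adjusted p under 0.05. Of the 39 cancer-testis genes, 19 had enough counts to be tested. In clone 1 against wild type, 4 were called higher, against 1.41% of all tested genes, and 6 lower, against 4.1% of all tested genes. In clone 2 against wild type, 2 were called higher, against 3.21% of all tested genes, and 11 lower, against 2.75% of all tested genes. The median log2 fold change of the 19 was −0.76 in clone 1 and −4.65 in clone 2, against −0.02 and 0.00 over all tested genes. With genes at 0 counts set at their bound the medians were −0.76 and −4.22. A gene that reaches the count filter only through the group in which it is high had to differ, so these counts describe the tested genes and not the 39. Both comparisons use the same wild-type libraries. Between the clones, in clone 2 against clone 1, 4 of the 19 were called higher, where 19.8% of all genes were, and 10 lower, where 14.1% of all genes were.

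The directions of the following called genes are set side by side for the 2 clones, whose comparisons share the wild-type libraries. CT83, MAGEB2, NAA11 and XAGE2 were higher than wild type in clone 1 and lower in clone 2, and SPANXB1 and SSX1 were lower in clone 1 and higher in clone 2. MAGEA3, MAGEA6 and MAGEA12 were lower in both clones. In the first 4 genes every clone 1 library lay above every wild-type library and every wild-type library above every clone 2 library, an order that 1.95% of all tested genes showed. The opposite order, clone 2 over wild type over clone 1, was seen in SPANXB1, SPANXC and SSX1 and in 4.9% of all tested genes.

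**Figure D2:**
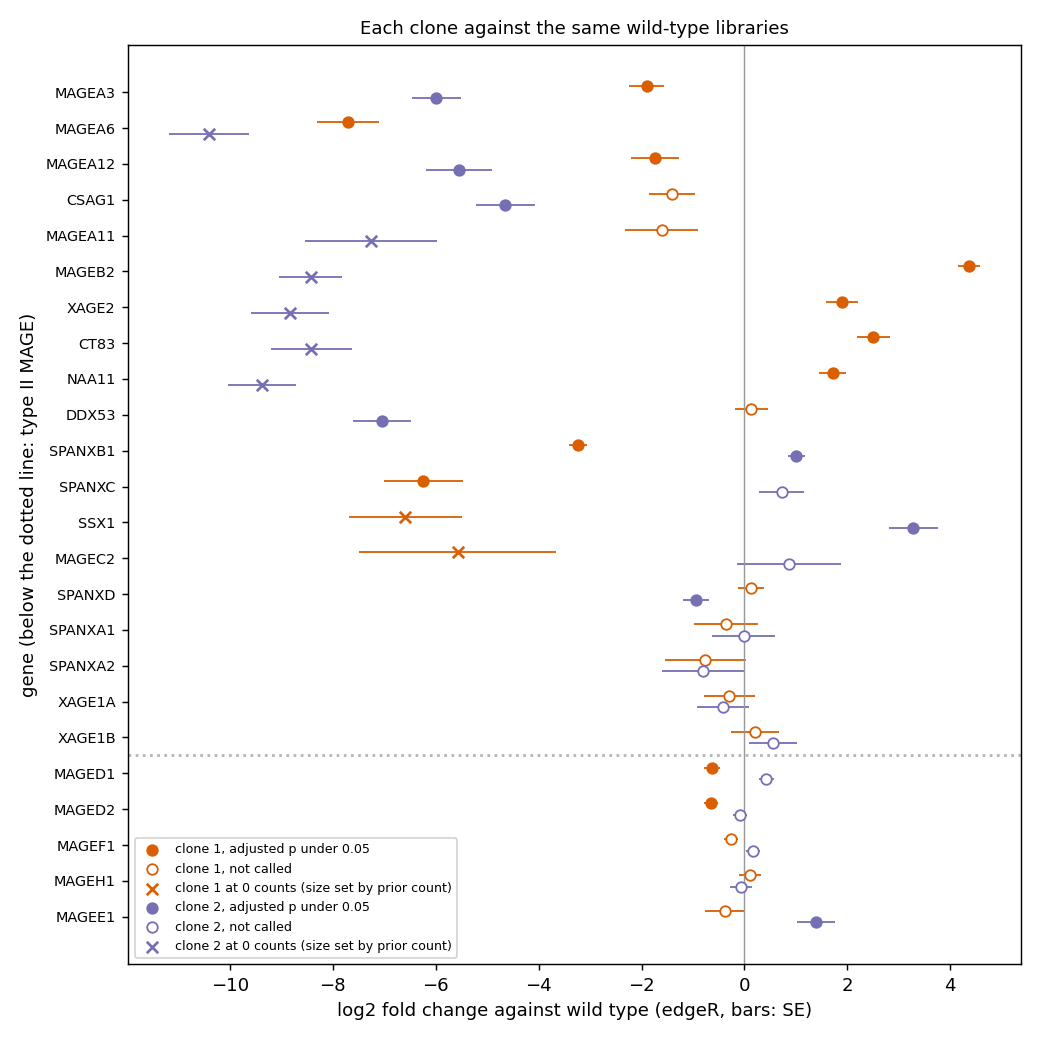
Log2 fold change of each tested cancer-testis and type II MAGE gene (bars, SE) in clone 1 and in clone 2 against the same wild-type libraries, filled where edgeR's adjusted p was under 0.05. Crosses mark genes at 0 counts in 3 of 3 libraries of the clone, whose plotted size depends on the prior count of the fit; MAGEB2, XAGE2, CT83 and NAA11 lie right of 0 in clone 1 and left of 0 in clone 2.

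The genes high in clone 1 and undetected in clone 2 came from unrelated families. MAGEB2, a type I MAGE gene at chrX:30215560-30220089, had 50.9, 42.9 and 39.2 CPM in clone 1, 0, 0 and 0 CPM in clone 2 and 1.94, 2.37 and 2.11 CPM in wild-type cells. It was abundant in every clone 1 library, low in every wild-type library and undetected in clone 2, with no overlap between groups. Its log2 fold change was 4.36 in clone 1 (SE 0.21, edgeR adjusted p = 1.73e-08), or 20.7-fold. In clone 2 it was at least 41.5-fold lower than in wild-type cells (edgeR adjusted p = 3.32e-06), where the bound sets the group at 3 counts in all, and it was at least 856-fold lower in clone 2 than in clone 1 (edgeR adjusted p = 7.09e-10).

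XAGE2, an X-linked member of the GAGE-like antigens at chrX:52369030-52375680, had 14.1, 9.13 and 8.69 CPM in clone 1, 0, 0 and 0 CPM in clone 2 and 3.64, 2.37 and 2.51 CPM in wild-type cells. The 3 groups again did not overlap. It was 3.74-fold higher in clone 1 (log2 fold change 1.90, SE 0.31, edgeR adjusted p = 0.00383) and at least 54.5-fold lower in clone 2 (edgeR adjusted p = 1.61e-05). CT83, also known as Kita-Kyushu lung cancer antigen, at chrX:116461682-116463003, had 10.0, 10.5 and 15.8 CPM in clone 1, 0, 0 and 0 CPM in clone 2 and 1.89, 2.79 and 1.66 CPM in wild-type cells. It was high in clone 1, low in wild-type cells and undetected in clone 2. The difference was 5.71-fold in clone 1 (log2 fold change 2.5, SE 0.32, edgeR adjusted p = 0.000477), and in clone 2 the level was at least 41.5-fold lower than in wild-type cells (edgeR adjusted p = 3.72e-05).

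NAA11, one of the 2 cancer-testis members outside chromosome X, encodes the testis paralogue of the catalytic subunit of the NatA N-terminal acetyltransferase and lies at chr4:79225694-79326050. It had 13.7, 14.2 and 12.9 CPM in clone 1, 0, 0 and 0 CPM in clone 2 and 3.35, 5.33 and 3.67 CPM in wild-type cells. Its libraries kept the same order of groups as the X-linked genes above. NAA11 was 3.30-fold higher in clone 1 (log2 fold change 1.72, SE 0.26, edgeR adjusted p = 0.00227) and at least 80.7-fold lower in clone 2 (edgeR adjusted p = 2.83e-06). DDX53, which encodes a DEAD-box RNA helicase, at chrX:22999961-23003589, had 6.94, 4.85 and 5.79 CPM in clone 1, 0, 0.0968 and 0 CPM in clone 2 and 5.0, 5.37 and 5.68 CPM in wild-type cells. Clone 1 and wild-type libraries overlapped, and the difference did not pass the test (log2 fold change 0.13, SE 0.32, edgeR adjusted p = 0.848). In clone 2 the 3 libraries held 2 reads in all, and wild-type CPM exceeded clone 2 CPM by a ratio of 155 (95% counting interval 42.5 to 1284, counting error only; edgeR adjusted p = 2.96e-06).

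**Figure D3:**
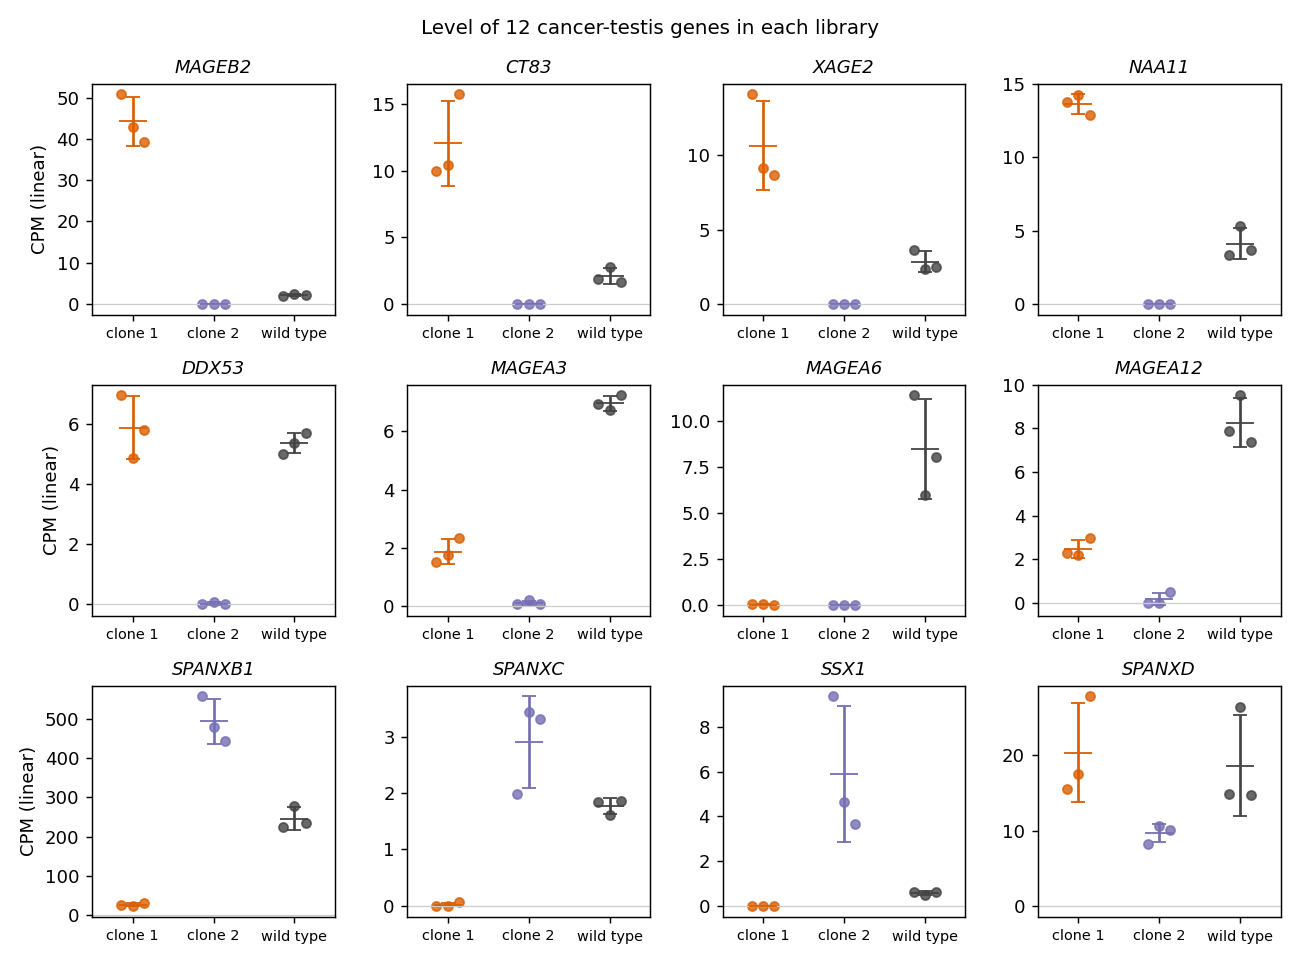
CPM on a linear scale of 12 cancer-testis genes in each library (points), with the mean and SD of the 3 libraries of each group (bars), in the order clone 1, clone 2, wild type. MAGEB2, CT83, XAGE2 and NAA11 stand highest in clone 1 and at 0 in clone 2, SPANXB1 and SSX1 stand highest in clone 2, and MAGEA3, MAGEA6 and MAGEA12 stand highest in wild-type cells.

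The 250 bases before the start of these 5 genes are printed because the genes were low or silent together in clone 2; the sequences are RefSeq's, build GRCh38.p14, read 5′ to 3′ on the strand of the gene, and capitals mark CpG dinucleotides. The windows are chrX:30215313-30215562 (+) for MAGEB2, chrX:52368771-52369020 (+) for XAGE2, chrX:116462977-116463226 (−) for CT83, chr4:79326062-79326311 (−) for NAA11 and chrX:22999710-22999959 (+) for DDX53.
MAGEB2: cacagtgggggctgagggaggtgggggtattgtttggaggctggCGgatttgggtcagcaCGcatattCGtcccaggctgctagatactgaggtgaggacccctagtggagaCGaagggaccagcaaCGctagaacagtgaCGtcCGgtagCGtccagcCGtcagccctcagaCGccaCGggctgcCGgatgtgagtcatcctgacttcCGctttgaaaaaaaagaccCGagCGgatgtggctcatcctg
XAGE2: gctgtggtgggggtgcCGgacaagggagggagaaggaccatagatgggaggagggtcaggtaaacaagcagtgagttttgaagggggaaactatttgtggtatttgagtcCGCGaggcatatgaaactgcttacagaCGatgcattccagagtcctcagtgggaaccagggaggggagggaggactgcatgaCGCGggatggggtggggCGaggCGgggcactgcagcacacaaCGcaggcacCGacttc
CT83: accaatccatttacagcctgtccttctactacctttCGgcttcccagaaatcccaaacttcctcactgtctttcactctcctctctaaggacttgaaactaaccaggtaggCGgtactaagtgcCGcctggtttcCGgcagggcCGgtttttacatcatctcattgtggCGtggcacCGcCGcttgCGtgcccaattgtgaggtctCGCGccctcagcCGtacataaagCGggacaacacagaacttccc
NAA11: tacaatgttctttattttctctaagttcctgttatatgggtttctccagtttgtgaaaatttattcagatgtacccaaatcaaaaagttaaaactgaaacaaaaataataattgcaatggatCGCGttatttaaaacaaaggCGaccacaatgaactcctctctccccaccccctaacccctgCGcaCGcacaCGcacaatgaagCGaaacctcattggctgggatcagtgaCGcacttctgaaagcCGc
DDX53: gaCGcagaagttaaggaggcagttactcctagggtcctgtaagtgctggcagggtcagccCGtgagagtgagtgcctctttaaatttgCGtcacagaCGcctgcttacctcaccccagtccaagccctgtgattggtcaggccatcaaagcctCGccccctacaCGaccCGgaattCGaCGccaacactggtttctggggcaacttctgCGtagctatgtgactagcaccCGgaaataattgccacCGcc

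MAGEB2 had 15 CpG in its window, CT83 had 13, DDX53 had 12, XAGE2 had 10 and NAA11 had 9, while the median over all 35116 RefSeq promoter windows of the same length was 11. The core of ETS factor motifs, CCGGAA or its reverse complement TTCCGG, was searched on both strands. It occurred in CT83, starting 118 bases before the start, and in DDX53, starting 82 and 21 bases before it, and was not found in the windows of MAGEB2, XAGE2 and NAA11. Among the 31 cancer-testis members with a window, 4 held the core (12.9%), against 14.5% of all windows. The 4 were CT83, DDX53, MAGEA3 and MAGEA6, each called lower in clone 2. The 5 genes printed here are part of the 11 cancer-testis genes called lower in clone 2. Their windows held different CpG numbers, and among them only those of CT83 and DDX53 held the core. The part of the core in the low levels was not tested.

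MAGEA3, MAGEA6, MAGEA12 and CSAG1 lie in 1 stretch of chromosome X, chrX:152698752-152702347, chrX:152766136-152769747, chrX:152733779-152737669 and chrX:152727484-152733735, and were highest in wild-type cells. MAGEA3 and MAGEA6 encode close relatives known to bind the ubiquitin ligase TRIM28 and to direct it to AMP-activated protein kinase. MAGEA3 had 1.5, 1.76 and 2.34 CPM in clone 1, 0.0619, 0.194 and 0.0474 CPM in clone 2 and 6.95, 6.73 and 7.24 CPM in wild-type cells. Every wild-type library lay above every clone 1 library, and every clone 1 library above every clone 2 library. How many of all tested genes showed this order was not counted. The log2 fold change was −1.90 (SE 0.34, edgeR adjusted p = 0.00452) in clone 1 and −5.99 (SE 0.47, edgeR adjusted p = 2.83e-06) in clone 2.

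MAGEA6 had 1, 1 and 0 reads in clone 1, 0, 0 and 0 reads in clone 2 and 234, 141 and 160 reads in wild-type cells. It was near or at 0 in 6 of 6 clone libraries and clearly present in wild-type cells. Wild-type CPM exceeded clone 1 CPM by a ratio of 243 (95% counting interval 67.0 to 2014; edgeR adjusted p = 3.49e-06), and MAGEA6 was at least 161-fold lower in clone 2 (edgeR adjusted p = 4.2e-06). The 2 clones did not differ in it by the test (edgeR adjusted p = 0.19).

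In clone 1, MAGEA3 and MAGEA6 parted. MAGEA6 made up 3.33, 2.63 and 0% of the reads of both genes in clone 1 and 62.1, 47.0 and 52.6% in wild-type cells. The groups did not overlap, at a mean of 1.99% ± 1.76 (SD, n = 3) in clone 1 and 53.9% ± 7.61 (SD, n = 3) in wild-type cells, with a two-sided exact permutation p of 0.1, the smallest that 3 libraries against 3 can give. In clone 2 the shares rest on 1, 4 and 1 reads and were not compared. The longest transcripts of the 2 genes were 98.6% identical in alignment, and 27.1% of the 150-base windows of MAGEA3 and 25.6% of those of MAGEA6 (GENCODE 29) occurred in the other gene, so part of their reads could have been assigned to either or dropped, and single-gene values are uncertain to that extent. The sum over the MAGEA family does not depend on how reads are split between copies, but would still lack dropped reads. It had a log2 fold change of −2.40 (edgeR adjusted p = 5.93e-05) in clone 1 and −6.47 (edgeR adjusted p = 9.85e-08) in clone 2. In clone 1, MAGEA12 supplied 44, 46 and 53 of its 80, 93 and 99 reads, so the sum is not a check on this pair alone.

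**Figure D4:**
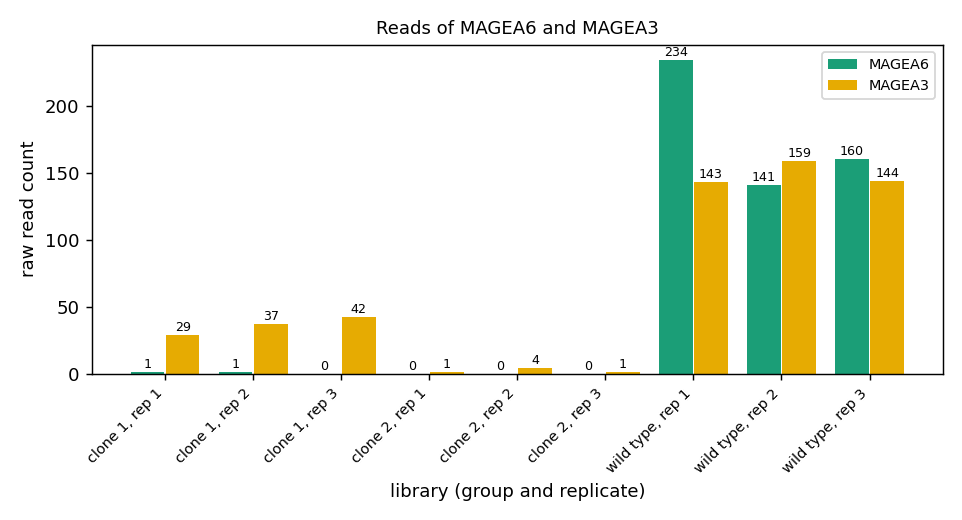
Raw read counts of MAGEA6 and MAGEA3 in each library, in the order clone 1, clone 2, wild type. Clone 1 has 29 to 42 reads of MAGEA3 and at most 1 of MAGEA6, while wild-type libraries have 141 to 234 reads of MAGEA6 beside 143 to 159 of MAGEA3.

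The pair is shown because the bases before their starts did not differ: the window of MAGEA3, chrX:152698544-152698793 (+), and that of MAGEA6, chrX:152769690-152769939 (−), were the same in 250 of 250 bases (RefSeq, GRCh38.p14). Capitals mark the 15 CpG dinucleotides, and the ETS core TTCCGG or CCGGAA starts 113 bases before the start in both.
MAGEA3 and MAGEA6: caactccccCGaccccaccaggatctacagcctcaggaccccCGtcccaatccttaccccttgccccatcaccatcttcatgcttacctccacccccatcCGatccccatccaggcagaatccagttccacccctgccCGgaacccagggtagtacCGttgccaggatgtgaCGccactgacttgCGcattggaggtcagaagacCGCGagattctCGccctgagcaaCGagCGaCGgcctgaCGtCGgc

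MAGEA12, another type I MAGE gene, had 2.28, 2.19 and 2.95 CPM in clone 1, 0, 0 and 0.474 CPM in clone 2 and 7.87, 9.52 and 7.39 CPM in wild-type cells. The 3 groups did not overlap, with wild type highest. Its log2 fold change was −5.55 (SE 0.64, edgeR adjusted p = 0.000164) in clone 2. In clone 1 it was −1.74 (SE 0.47, edgeR adjusted p = 0.0439), and that call was lost when any 1 of the 3 clone 1 or the 3 wild-type libraries was left out (edgeR adjusted p 0.0681 without wild type replicate 1, up to 0.154 without clone 1 replicate 2).

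CSAG1, a chondrosarcoma-associated gene, lies head to head with MAGEA12 on the opposite strand, with 44 bases between the 2 genes. It had 1.14, 1.90 and 2.90 CPM in clone 1, 0, 0.291 and 0.285 CPM in clone 2 and 6.02, 4.53 and 5.18 CPM in wild-type cells. The groups stood in the same order as for MAGEA12 and did not overlap. The log2 fold change was −4.65 (SE 0.58, edgeR adjusted p = 0.000231) in clone 2, and −1.41 (SE 0.45, edgeR adjusted p = 0.0797) in clone 1, which missed the threshold; without clone 2 replicate 1 it passed (edgeR adjusted p = 0.0284), and DESeq2 gave an adjusted p of 0.0213. CSAG4 overlaps MAGEA12 on the same strand, and it is not stated how reads in both were counted.

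MAGEA11, known as a coregulator of the androgen receptor, lies apart from this stretch, at chrX:149688228-149717266. It had 6, 8 and 4 reads in clone 1, 0, 0 and 0 reads in clone 2 and 16, 32 and 14 reads in wild-type cells. The gene was low everywhere and undetected in clone 2, where it was at least 18.7-fold lower than in wild-type cells (edgeR adjusted p = 0.00586; DESeq2 gave no adjusted p). In clone 1 the log2 fold change was −1.61 (SE 0.72, edgeR adjusted p = 0.206).

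The SPANX genes, named for sperm proteins associated with the nucleus on chromosome X, include the member with the most reads in clone 2 and wild-type cells. SPANXB1, at chrX:141002591-141003706, had 25.3, 22.1 and 30.8 CPM in clone 1, 558, 481 and 445 CPM in clone 2 and 224, 279 and 234 CPM in wild-type cells. It was high in every clone 2 library, intermediate in wild-type cells and low in clone 1, without overlap. The log2 fold change was −3.24 in clone 1 (SE 0.18, edgeR adjusted p = 1.68e-08), or 9.44-fold lower, and 1.01 in clone 2 (SE 0.16, edgeR adjusted p = 0.00229), or 2.01-fold higher.

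Per kilobase of gene length, SPANXB1 had 55.5 CPM per kb in clone 1, 1055 CPM per kb in clone 2 and 524 CPM per kb in wild-type cells. That placed it at rank 738 in clone 1, rank 21 in clone 2 and rank 54 in wild-type cells among the 16921 tested genes. SPANXB1 supplied 16.7 to 20.0% of all reads of the 39 cancer-testis genes in clone 1, 95.2 to 95.7% in clone 2 and 75.8 to 77.6% in wild-type cells. Summed over the 39 genes, the reads came to 132 to 154 CPM in clone 1, 467 to 583 CPM in clone 2 and 295 to 361 CPM in wild-type cells. Without SPANXB1 the order was the reverse, at 110 to 123 CPM in clone 1, 21.7 to 25.2 CPM in clone 2 and 67.5 to 81.7 CPM in wild-type cells. The total of the families therefore followed this gene, while the sum of the rest was lowest in clone 2. Of that sum, MAGEB2 alone supplied 39.2 to 50.9 CPM in clone 1 and 1.94 to 2.37 CPM in wild-type cells. Not every gene followed the sum: SSX1 and SPANXC were highest in clone 2.

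SPANXC, 238 kb from SPANXB1 at chrX:141241463-141242496, had 0, 0 and 1 read in clone 1, 32, 71 and 70 reads in clone 2 and 38, 38 and 37 reads in wild-type cells. It was near 0 in clone 1 and present in the other 2 groups. Wild-type CPM exceeded clone 1 CPM by a ratio of 103 (95% counting interval 18.1 to 4094; edgeR adjusted p = 0.00016), while clone 2 and wild type did not differ by the test (log2 fold change 0.72, SE 0.43, edgeR adjusted p = 0.324).

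SPANXD, at chrX:141697411-141698739, had 15.5, 17.5 and 27.7 CPM in clone 1, 8.29, 10.6 and 10.1 CPM in clone 2 and 14.8, 26.3 and 14.6 CPM in wild-type cells. Clone 1 and wild-type libraries overlapped and clone 2 lay below both. The log2 fold change was 0.12 (SE 0.25, edgeR adjusted p = 0.814) in clone 1 and −0.95 (SE 0.26, edgeR adjusted p = 0.0416) in clone 2. The call in clone 2 was lost without clone 1 replicate 2, without any 1 of the clone 2 replicates or without wild type replicate 1 or 2 (edgeR adjusted p 0.0514 to 0.222). SPANXC shared 26.9% of its 150-base windows with SPANXD, whose longest transcript was 99.0% identical to it in alignment; the 2 genes stood in different relation to wild type in clone 1, where SPANXC made up 0, 0 and 0.201% of their joint reads, against 11.1, 5.77 and 11.3% in wild-type cells.

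SSX1, a transcriptional repressor known from its fusion to SS18 in synovial sarcoma, lies at chrX:48255317-48267444. It had 0, 0 and 0 reads in clone 1, 151, 96 and 77 reads in clone 2 and 13, 12 and 13 reads in wild-type cells. It was undetected in clone 1, low in wild-type cells and highest in clone 2. SSX1 was at least 11.5-fold lower in clone 1 (edgeR adjusted p = 0.00405) and 9.84-fold higher in clone 2 (log2 fold change 3.28, SE 0.47, edgeR adjusted p = 0.00134). None of its 150-base windows occurred in another gene, and the same held for SPANXB1.

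The windows of SPANXB1, chrX:141002344-141002593 (+), SPANXC, chrX:141242518-141242767 (−), and SSX1, chrX:48255142-48255391 (+), are shown because these 3 genes were lower in clone 1; capitals mark CpG dinucleotides (RefSeq, GRCh38.p14).
SPANXB1: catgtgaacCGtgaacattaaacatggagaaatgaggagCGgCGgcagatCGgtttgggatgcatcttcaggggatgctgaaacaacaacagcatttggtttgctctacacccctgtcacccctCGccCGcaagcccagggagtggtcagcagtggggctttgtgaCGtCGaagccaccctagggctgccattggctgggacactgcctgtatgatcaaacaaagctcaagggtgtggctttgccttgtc
SPANXC: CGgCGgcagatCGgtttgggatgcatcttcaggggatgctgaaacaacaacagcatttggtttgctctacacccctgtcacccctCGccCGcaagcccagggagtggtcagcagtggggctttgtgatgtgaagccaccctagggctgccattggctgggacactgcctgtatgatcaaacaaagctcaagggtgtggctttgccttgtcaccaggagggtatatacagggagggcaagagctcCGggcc
SSX1: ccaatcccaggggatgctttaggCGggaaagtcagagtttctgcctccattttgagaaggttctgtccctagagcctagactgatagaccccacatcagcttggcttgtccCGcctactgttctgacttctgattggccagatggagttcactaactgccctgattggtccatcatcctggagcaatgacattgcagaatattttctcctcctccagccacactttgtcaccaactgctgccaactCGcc

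SPANXB1 held 8 CpG, SPANXC 6 and SSX1 3, each below the median of 11 over all windows, and none held the ETS core. The windows of SPANXB1 and SPANXC aligned over 211 positions at 99.1% identity, with SPANXC shifted along the alignment because its RefSeq start lies further downstream. The 2 genes with nearly the same bases before their starts were both lower in clone 1. In clone 2 SPANXB1 was called higher (log2 fold change 1.01, SE 0.16). SPANXC was not called there, but its change had the same direction (0.72, SE 0.43) and its clone 2 libraries did not overlap wild type.

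MAGEC2, which binds TRIM28 as MAGEA3 does, was at the edge of detection at chrX:142202345-142205290. It had 0, 0 and 0 reads in clone 1, 13, 15 and 2 reads in clone 2 and 4, 1 and 13 reads in wild-type cells. It was undetected in clone 1, and the other groups overlapped. It was at least 10.1-fold higher in clone 2 than in clone 1 (edgeR adjusted p = 0.0142), but neither clone differed from wild type by the test (edgeR adjusted p = 0.105 in clone 1 and 0.646 in clone 2). MAGEB1, 23.6 kb from MAGEB2, was on in 1 wild-type library at 0.553 CPM and had 0 counts in both clones. PAGE5 was likewise on in 1 wild-type library, at 0.603 CPM, with 0 counts in both clones.

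Some pairs could not be read gene by gene. XAGE1A shared 100% of its 150-base windows with XAGE1B, and SPANXA1 and SPANXA2 shared 100% of theirs. XAGE1A ran from 0.673 to 1.24 CPM in clone 1, 0.678 to 1.05 CPM in clone 2 and 1.11 to 1.35 CPM in wild-type cells, and XAGE1B from 0.947 to 1.57, 1.23 to 2.35 and 0.826 to 1.57 CPM in the same order. SPANXA1 stayed between 0.311 and 1.10 CPM over the 9 libraries and SPANXA2 between 0.0518 and 1.40 CPM. None of the 4 was called in any comparison.

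The other 17 cancer-testis members never reached 0.5 CPM, and their highest count in a library was 8. Together they had 41 reads in clone 1, 20 reads in clone 2 and 65 reads in wild-type cells. A further 75 cancer-testis symbols had no count in any library, among them all 13 of CT47, 12 of 13 GAGE and 9 of 10 CT45. These absences are uncertain where copies are alike. Of the cancer-testis symbols with no count, 71 had a transcript, and a median of 64.1% of their 150-base windows occurred in another gene, against a median of 0% for the 38 symbols with a count. For GAGE, CT45 and CT47 symbols with no count the medians were 95.2, 94.1 and 100%, and reads from such windows are dropped by many counting settings. In these data XAGE1A, SPANXA1 and SPANXA2 also shared 100% of their windows, and each had reads in every library. The part of dropped reads in the missing counts was not tested. By contrast MAGEA1 and MAGEA4 had no count and shared none of their windows.

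**Figure D5:**
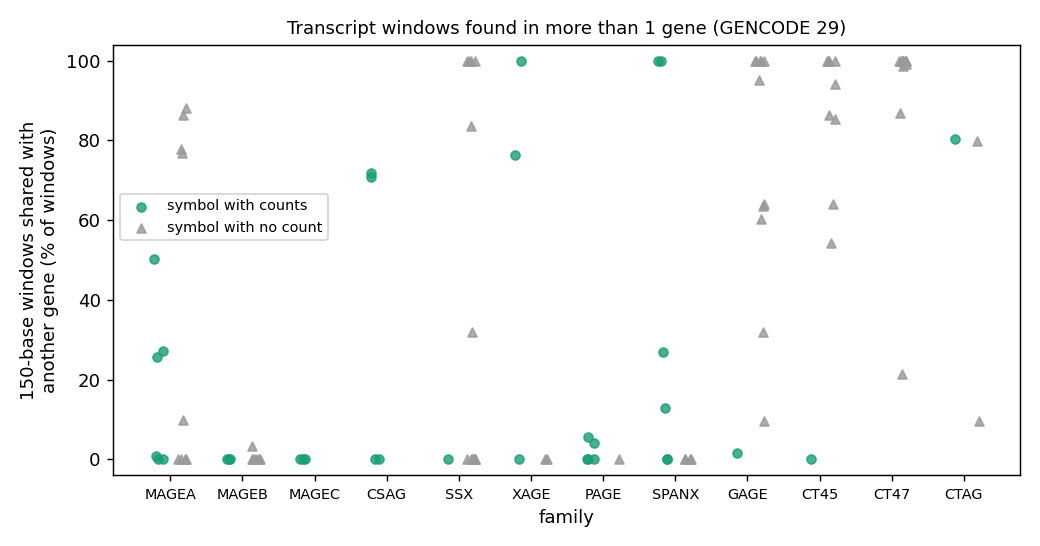
Percentage of the 150-base windows of each cancer-testis symbol (GENCODE 29 transcripts) that also occur in another gene, by family, for symbols with counts (circles) and with no count (triangles). Most GAGE, CT45 and CT47 symbols with no count lie above 50%, while MAGEB2, SSX1, SPANXB1 and XAGE2 lie at 0%.

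The type II MAGE genes, which share the MAGE homology domain but are expressed in many tissues, had 8 members. Of these, 5 were tested and each was on in all 9 libraries. The other 3 had too few counts to be tested. MAGED4B had 1, 1 and 10 reads in clone 1, 1, 4 and 5 reads in clone 2 and 6, 6 and 5 reads in wild-type cells, and reached 0.5 CPM in 1 library of clone 1. MAGED4, which shared 97.2% of its 150-base windows with MAGED4B, had 0, 1 and 1 reads in clone 1, 1, 5 and 9 reads in clone 2 and 6, 5 and 1 reads in wild-type cells. MAGEE2 had 0 reads in clone 1, 1 read in clone 2 and 6 reads in wild-type cells. MAGED1, an adaptor of the p75 neurotrophin receptor, had 34.7, 41.1 and 34 CPM in clone 1, 67.3, 76.0 and 84.6 CPM in clone 2 and 46.8, 61.6 and 61.4 CPM in wild-type cells. The 3 groups did not overlap, with clone 2 highest. The log2 fold change was −0.63 (SE 0.15, edgeR adjusted p = 0.0266) in clone 1 and 0.43 (SE 0.15, edgeR adjusted p = 0.1) in clone 2, and with the replicate number as a block clone 2 passed the test (edgeR adjusted p = 0.0252). Without wild type replicate 2 or 3 or any 1 of the clone 1 replicates the call in clone 1 was lost (edgeR adjusted p 0.057 to 0.141), and without clone 2 replicate 1 clone 2 was called (edgeR adjusted p = 0.0497).

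MAGED2, known for mutations that cause transient antenatal Bartter syndrome, had 61.0, 70.6 and 61.9 CPM in clone 1, 98.7, 89.9 and 97.3 CPM in clone 2 and 109, 107 and 87.6 CPM in wild-type cells. Clone 1 lay below the other groups, which overlapped. It was 1.57-fold lower in clone 1 (log2 fold change −0.65, SE 0.14, edgeR adjusted p = 0.013). Leaving out clone 1 replicate 1, clone 1 replicate 3 or wild type replicate 2 ended that call (edgeR adjusted p 0.0571 to 0.0818). MAGEE1, which binds dystrobrevin, had 1.71, 0.856 and 2.84 CPM in clone 1, 5.44, 6.0 and 6.83 CPM in clone 2 and 1.75, 2.5 and 2.72 CPM in wild-type cells. Clone 2 lay above the other groups, which overlapped. It was 2.63-fold higher in clone 2 (log2 fold change 1.39, SE 0.37, edgeR adjusted p = 0.038). Leaving out clone 2 replicate 2, clone 2 replicate 3 or wild type replicates 1 or 2 ended that call (edgeR adjusted p 0.0557 to 0.15).

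MAGEF1 ran from 36.2 to 42.4 CPM in clone 1, 48.5 to 56.9 CPM in clone 2 and 44.2 to 49.9 CPM in wild-type cells, and MAGEH1 from 9.01 to 14.7, 10.9 to 11.8 and 10.2 to 14.5 CPM; neither was called against wild type. In clone 2 against clone 1 the log2 fold change was 1.05 for MAGED1 (edgeR adjusted p = 0.000172), 0.56 for MAGED2 (edgeR adjusted p = 0.00497) and 1.77 for MAGEE1 (edgeR adjusted p = 0.00249). It was 0.42 for MAGEF1 (edgeR adjusted p = 0.0246), a difference no longer called without clone 1 replicate 1, clone 1 replicate 3, clone 2 replicate 3 or wild type replicate 2 (edgeR adjusted p 0.0555 to 0.13). Among the members kept apart was SSX2IP, which encodes a centrosomal and junctional protein that binds SSX2. SSX2IP had 45.1 to 48.3 CPM in clone 1, 57.0 to 78.6 CPM in clone 2 and 43.8 to 60.0 CPM in wild-type cells. It was not called against wild type (edgeR adjusted p = 0.714 in clone 1 and 0.111 in clone 2), except in clone 2 with the replicate block (edgeR adjusted p = 0.0284) and without clone 2 replicate 1 (edgeR adjusted p = 0.0411). In clone 2 against clone 1 it was higher (log2 fold change 0.53, SE 0.16, edgeR adjusted p = 0.0151), which missed the threshold when clone 1 replicate 2, clone 1 replicate 3 or clone 2 replicate 3 was left out (edgeR adjusted p 0.0501 to 0.101). CTAGE5 and CTAGE7P were tested and not called in any comparison. CTAGE4 and CTAGE8 had too few counts to be tested. CTAGE4 had 4, 3 and 10 reads in clone 1, 0, 8 and 0 reads in clone 2 and 2, 13 and 5 reads in wild-type cells, and CTAGE8 had 10, 8 and 3 reads in clone 1, 0, 0 and 1 read in clone 2 and 0, 1 and 0 reads in wild-type cells. Each reached 0.5 CPM in 1 library of clone 1, and CTAGE4 also in 1 wild-type library.

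Gene lists that bear on cancer-testis genes were counted in the same fit. Of 70 other germline genes outside these families, 22 were tested: none was called in clone 1 by edgeR (5 at an unadjusted p under 0.05, and 1 by DESeq2), and 2 were called higher in clone 2, where 3.21% of all tested genes were: STK31, a testis-enriched tudor-domain gene (log2 fold change 1.46, SE 0.40, edgeR adjusted p = 0.0421), and DCAF12 (0.66, SE 0.15, edgeR adjusted p = 0.019). CTCFL, a testis paralogue of CTCF, had 0 counts in all 9 libraries, and PRAME stayed at or under 0.0949 CPM. No tested gene of this germline list was called lower in clone 2, where 2.75% of all tested genes were. How many of the 22 are also expressed outside germ cells was not examined, so these counts describe the list only.

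Of 18 tested writers, readers and erasers of DNA methylation, 5 were called higher in clone 2, against 3.21% of all tested genes, and 1 lower, against 2.75%. UHRF2 had 56.2, 50.4 and 53.7 CPM in clone 1, 89.7, 86.2 and 85.8 CPM in clone 2 and 47.9, 43.8 and 42.5 CPM in wild-type cells. Clone 2 lay above both other groups (log2 fold change against wild type 0.96, SE 0.13, edgeR adjusted p = 0.000386). UHRF1, which brings the maintenance methyltransferase to replicated DNA, rose by 0.74 (SE 0.16, edgeR adjusted p = 0.0162), and DNMT1, that methyltransferase, by 0.74 (SE 0.18, edgeR adjusted p = 0.0271) on the log2 scale in clone 2. MBD3 rose by 0.51 (SE 0.13, edgeR adjusted p = 0.0291), the remaining gene called higher was ZBTB38, and the gene called lower was TET2, which oxidises methylcytosine (log2 fold change −0.72, SE 0.20, edgeR adjusted p = 0.0471); the last 2 were named after their values were seen. The part of these genes in the silence of the members of clone 2 was not tested.

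Of 25 tested repressors of germline genes, none was called in clone 1 by edgeR (3 at an unadjusted p under 0.05, and none by DESeq2), and 2 were called higher in clone 2, against 3.21% of all tested genes: TRIM28 (log2 fold change 0.63, SE 0.17, edgeR adjusted p = 0.0429) and MAX (0.45, SE 0.13, edgeR adjusted p = 0.048). TRIM28 is also the ligase partner of MAGEA3, MAGEA6 and MAGEC2. Of 13 tested MAGE-partner ligases and their reported targets, TRIM28 was the 1 called in clone 2, again beside 3.21% of all tested genes called higher.

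Genes near the members were counted too. Of 534 tested X-linked genes outside the families, 40 were called higher and 28 lower in clone 1, where 1.41% of all tested genes were higher and 4.1% lower. In clone 2, 21 of the 534 were called higher and 23 lower, where 3.21% of all tested genes were higher and 2.75% lower. In all, 12.7% of the 534 were called in clone 1 and 8.24% in clone 2. Within 250 kb of the members called against wild type, 10 other genes were tested in clone 1 and 1 was called higher, against 1.41% of all tested genes. In clone 2, 18 were tested, of which 1 was called higher, against 3.21% of all tested genes, and 1 lower, against 2.75%. ZNF185, in the stretch of MAGEA3, was higher in both clones (log2 fold change 0.88, SE 0.19, edgeR adjusted p = 0.0149 in clone 1, and 0.71, SE 0.19, edgeR adjusted p = 0.0377 in clone 2), while MAGEA3, MAGEA6 and MAGEA12 were lower. LINC00989, 166 kb from NAA11, had 26, 77 and 57 reads in clone 1, 0, 0 and 0 reads in clone 2 and 29, 103 and 52 reads in wild-type cells. Like NAA11 it was undetected in clone 2 (edgeR adjusted p = 0.000385), but in clone 1 it did not differ from wild type by the test (log2 fold change −0.04, SE 0.49, edgeR adjusted p = 0.976).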

How the data were processed

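RNA of 9 libraries was sequenced as read pairs by a service. The authors deposited raw counts per gene symbol in 2 tables, 1 for each clone, which both repeat the wild-type libraries (3 of 3 columns identical; entered a single time). The tools STAR, featureCounts, Subread and DESeq2 and the build GRCh38 are listed per the submitters' processing notes. How overlapping genes and strands were counted is not given in the sources used here, nor are tool versions or the annotation release, so a gene and its antisense partner may share reads.

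Counts were tested with edgeR 4.0.16 in R 4.3.3: TMM factors, filterByExpr by group (minimum count 10), a robust quasi-likelihood fit of 9 libraries as 3 groups (6 residual degrees of freedom), two-sided, with Benjamini-Hochberg adjustment over 16921 genes. DESeq2 1.42.0, other scalings, no filter, the 6 libraries compared, a replicate block, family sums and leaving out each library were alternatives. The fit was tested on simulated data. The biological coefficient of variation was 20.3%. Same-numbered libraries deviated together in clone 2 against wild type (correlations 0.223, 0.269 and 0.246), so the block is given there where it changed a call. Intervals are exact for counts and cover counting error only.

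Transcript windows came from GENCODE 29 (134 of 139 symbols matched), promoters from RefSeq GRCh38.p14 (44 of 57 members matched); alignments used Biopython 1.88. Members on, called or with 10 or more counts are described. The members and gene lists were chosen with earlier results of these data known. For the lists of DNA methylation genes and of MAGE-partner ligases, the counts in clone 1 are not reported here.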

Additional observations from a re-analysis of the deposited data

Results flagged for a closer look

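The clones differed from each other in genes that lay on opposite sides of the same wild-type libraries, tested by clone 2 against clone 1 in edgeR. The genes were picked for that difference, so the p-values describe them and are no separate support. Of all tested genes, 19.8% were called higher and 14.1% lower in clone 2 than in clone 1. On the log2 scale MAGEB2 differed by −12.79 (adjusted p = 7.09e-10), NAA11 by −11.09 (adjusted p = 4.83e-08), CT83 by −10.92 (adjusted p = 1.94e-07) and XAGE2 by −10.74 (adjusted p = 2.4e-07), each at 0 counts in clone 2. SSX1 differed by 9.88 (edgeR adjusted p = 8.26e-06), at 0 counts in clone 1. The fitted sizes of these 5 depend on the prior count and are no bounds; with 3 counts over the silent group the differences were at least 856-fold, 263-fold, 230-fold and 205-fold lower and at least 109-fold higher in clone 2. SPANXB1, with reads in every library, differed by 4.25 (SE 0.19, edgeR adjusted p = 7.09e-10), or 19.0-fold. Each clone is 1 isolate, so differences between isolates and effects of the knockout cannot be told apart.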

How the results depend on the processing

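The counts here cover all 57 members with a count, not only the 39 cancer-testis genes. Main counts of called members were 12 (clone 1), 14 (clone 2) and 19 (clone 2 against clone 1) of 27 tested. Of all tested genes, 1.41% were called higher and 4.1% lower in clone 1, and 3.21% and 2.75% in clone 2. Between the clones the shares were 19.8% higher and 14.1% lower. Over alternatives the counts of called members stayed within 1.5 times, at 9 to 14, 10 to 16 and 15 to 19. With the replicate block they were 13, 16 and 19: clone 1 gained CSAG1 (adjusted p = 0.0172) and clone 2 MAGED1 (0.0252) and SSX2IP (0.0284); the block changed no other call of a member. In clone 1 against wild type and between the clones the same-number correlations were not all over 0.1, and not every library correlated best with its own number. Of all 57 members, those on in 3 of 3 libraries at 0.5 CPM were 20, 14 and 25 (clone 1, clone 2, wild type), and 16, 12 and 20 at 1 CPM. JAG1 stayed lower in both clones under every alternative run.

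Signs turned for 10 differences, none of them called. With 1 library left out, the log2 fold change in clone 1 against wild type ran from −0.0202 to 0.0635 for CTAGE5, −0.014 to 0.264 for DDX53, −0.0157 to 0.299 for MAGEH1, −0.716 to 0.0259 for SPANXA1, −0.173 to 0.478 for SPANXD and −0.211 to 0.0481 for SSX2IP. In clone 2 against wild type it ran from −0.159 to 0.0863 for MAGEH1 and −0.357 to 0.333 for SPANXA1 (0.119 with the replicate block). Between the clones it ran from −0.578 to 1.15 for SPANXA2 (0.104 with the replicate block) and −0.325 to 0.0544 for XAGE1A. A count of 0 in a group allows up to 3 reads and does not show absence.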
